A study of Mus musculus with 11 samples.

Results

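The comparison set tumor-associated macrophages of mice with Sin1 deleted in myeloid cells (KO_TAM, 4 libraries) against splenic macrophages of mice with intact Sin1 (WT_SP, 3 libraries), which are 7 of the 11 libraries of the study. The 2 groups lie in different deposited tables, 1 on genotype and 1 on site, and the 4 libraries of control tumor macrophages (WT_TAM) are in both. Genes were joined on identifier and name, and genes with negative values or with a WT_TAM value of 0 in any library were left out. KO_TAM was then put on the scale of the site table through the WT_TAM values that both tables hold. This kept 14411 of the 33340 joined genes, of which 12245 passed a filter on low values and were tested. All mice were C57BL/6, 6 to 8 weeks old, and received 500000 Lewis lung carcinoma cells, a transplantable mouse lung tumor line, under the skin. Cells were sorted on day 14. WT_TAM and WT_SP came from Sin1 fl/fl mice without Cre, and KO_TAM from LysMCre;Sin1 fl/fl mice, in which Cre is made from the Lyz2 (LysM) locus and so acts in myeloid cells in general, not in tumor macrophages alone. Both sorts took CD45+ F4/80+ cells and left out Ly6G+ and Ly6C+ cells. Those from tumor were CD11b+, and those from spleen were low for CD11b and lacked TCRβ. Splenic macrophages with Cre were not analysed here, so genotype and site both differ between KO_TAM and WT_SP and cannot be told apart in that comparison alone. The question was therefore which differences between tumor and spleen stayed, grew or shrank when the tumor macrophages had lost Sin1.

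Mapkap1 encodes Sin1, which holds together mTOR complex 2. This complex activates the kinases AKT and SGK1 when growth factors act on a cell, and through them bears on FoxO factors, lipid synthesis and glucose use. Macrophages of the splenic red pulp depend on the factor Spi-C, take up worn red cells and return their iron to the blood through ferroportin. Macrophages of a tumor derive largely from blood monocytes, live with little oxygen, and are known for arginase, matrix enzymes, chemokines and lipid-laden states.

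Library totals were 9859803 to 13118534 reads in KO_TAM, 10635143 to 11817517 in WT_SP and 7639550 to 13077647 in WT_TAM. Levels are given as CPM, the reads of a gene relative to its library's depth on 1 scale for all libraries, differences as log2 of CPM plus 0.5 with their standard error (SE), and a gene was called at a limma adjusted p under 0.05. At these depths 3 reads correspond to 0.211 to 0.492 CPM, a limit that covers counting error only. Whether each library stands for its own mouse is not stated in the labels. The p-values therefore describe how these libraries vary, which may be technical variation. WT_TAM replicate 4 and KO_TAM replicate 2 stood apart. In WT_TAM replicate 4, 31.1% of genes lay more than 2-fold from the mean of the rest of its group, against 14.1% in KO_TAM replicate 2, 2.72% to 5.41% in the other tumor libraries and 1.19% to 2.74% in WT_SP. Many results that rest on these libraries are given with and without them.

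The labelled cell types were checked against marker genes. Csf1r, which encodes the growth factor receptor of macrophages, was at 1929.6, 1577, 1518 and 1627 CPM in KO_TAM and 1244, 1006 and 959.8 CPM in WT_SP. The red pulp genes Spic and Itgad were at 135 to 176 CPM in WT_SP and at most 3.15 CPM in KO_TAM. WT_SP libraries also held B cell and plasma cell transcripts, whose summed level was 27741 to 34555 CPM there and 720 to 867 CPM in KO_TAM, and T cell and natural killer cell transcripts, at 2917 to 3135 and 317 to 580 CPM. No listed B cell or T cell marker was at 0 in all WT_SP libraries. In bulk samples fewer cells of a type and less RNA per cell cannot be told apart.

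Mapkap1 itself (chr2:34406771-34624950, plus strand, GRCm38, GENCODE annotation) was detected throughout. It was at 50.2, 61.8, 49.4 and 52.5 CPM in KO_TAM and 60.1, 62.7 and 56 CPM in WT_SP, with a log2 difference of -0.16 ± 0.12 (SE; limma adjusted p = 0.29). WT_TAM libraries were at 81.9, 76.7, 67.6 and 32.5 CPM. KO_TAM minus WT_TAM was -0.19 (limma adjusted p = 0.725). Without KO_TAM replicate 2 and WT_TAM replicate 4 it was -0.56, each KO_TAM library lay below each WT_TAM library, and the difference was not called (limma adjusted p = 0.0633). WT_TAM minus WT_SP was 0.03 with all libraries and 0.33, called, without WT_TAM replicate 4 (limma adjusted p = 0.0162). The KO_TAM and WT_SP ranges overlapped, and the floxed part of the gene is not stated in any source used here, so the summed reads of the gene do not check the deletion. Lyz2, whose locus carries Cre, was at 13139, 3134, 13540.5 and 17403 CPM in KO_TAM, 29899, 31990.1, 25249 and 35695 CPM in WT_TAM and 1630, 1661 and 2098 CPM in WT_SP. It was called higher in KO_TAM than in WT_SP, by 2.48 ± 0.51 on the log2 scale (SE; limma adjusted p = 0.00294), and each KO_TAM library lay below each WT_TAM library. KO_TAM minus WT_TAM for Lyz2 was -1.62 (limma adjusted p = 0.155), and without KO_TAM replicate 2 and WT_TAM replicate 4 it was -0.99 (limma adjusted p = 0.032). Only KO_TAM carries Cre at this locus, so for Lyz2 the Cre allele and the loss of Sin1 cannot be told apart.

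In KO_TAM against WT_SP, 3464 of 12245 genes (28.3%) were called higher and 3205 (26.2%) lower, 6669 (54.5%) in all. More than 4-fold differences were called higher for 993 genes (8.11%) and lower for 621 (5.07%). Libraries of the 2 groups did not overlap for 7215 genes (58.9%), of which 3646 (29.8%) were higher and 3569 (29.1%) lower. At an unadjusted limma p under 0.05 the share was 60.0%. For WT_TAM against WT_SP, 3031 of 12478 genes were called higher (24.3%) and 2537 lower (20.3%), 44.6% in all, and 52.5% had an unadjusted p under 0.05. Those libraries did not overlap for 55.4% of genes (28.0% higher and 27.4% lower). Both comparisons use the same WT_SP libraries, so their values are set side by side and no agreement between them is counted as evidence. The test of whether a difference grew or shrank is KO_TAM against WT_TAM, in which WT_SP cancels. There, 0 of 12047 genes were called (0.0%), the smallest limma adjusted p was 0.109, and 2115 genes (17.6%) had an unadjusted p under 0.05. KO_TAM and WT_TAM libraries did not overlap for 1784 genes (14.8%), 731 of them higher (6.07%) and 1053 lower (8.74%) in KO_TAM. Without the 2 libraries that stood apart, 16 genes were called higher and 40 lower of 12058 (0.464%), and with a weight per library 119 and 242.

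**Figure D1:**
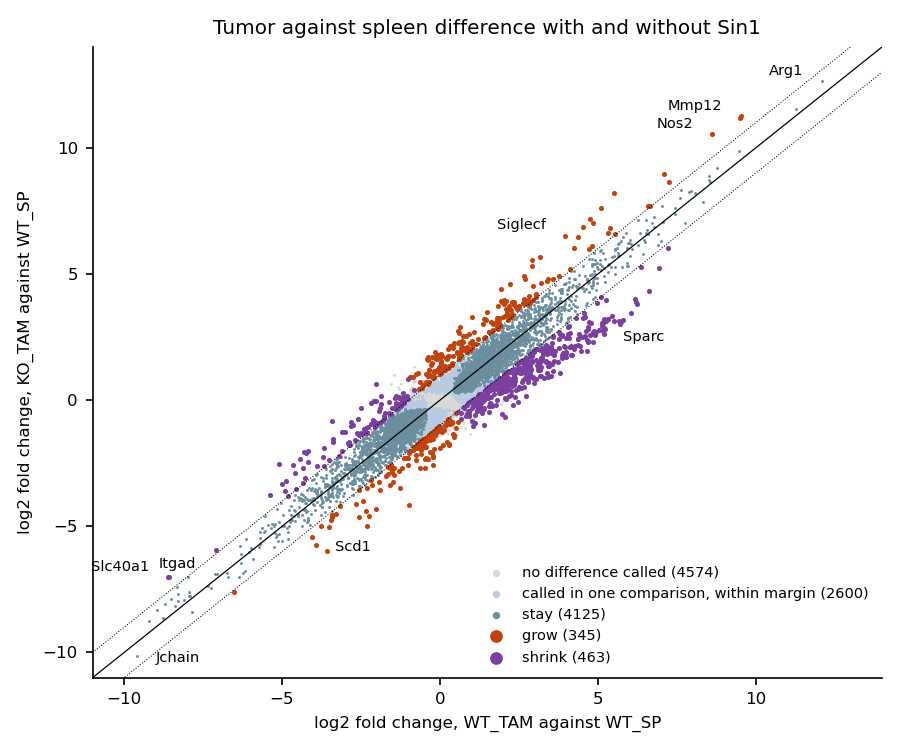
Each point is a gene tested in both site comparisons. The x axis is the log2 difference of WT_TAM minus WT_SP, the y axis that of KO_TAM minus WT_SP, both on log2(CPM + 0.5), and colors mark the classes used in the text. Most points lie within 1 of the diagonal, and because both axes subtract the same WT_SP libraries this closeness is in part built in.

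A gene had a difference between tumor and spleen if at least 1 of the 2 site comparisons called it, which held for 7533 of 12107 genes tested in both. The difference stayed if both called it in 1 direction and KO_TAM and WT_TAM lay within 1 on the log2 scale. It grew or shrank if KO_TAM lay more than 1 further from, or nearer to, WT_SP. With all libraries 4125 genes stayed (54.8%), 345 grew (4.58%), 463 shrank (6.15%), 2600 were within 1 but called in 1 comparison only (34.5%), and 0 reversed. Of genes higher in tumor 2093 stayed, 200 grew and 364 shrank, and of genes lower in tumor 2032 stayed, 145 grew and 99 shrank. Libraries of KO_TAM and WT_TAM did not overlap for 18.1% of the 7533 genes, against 64.0% of the raised differences that grew and 72.8% of those that shrank, classes whose margin is set on the same contrast. Many lay near the margin: 131 of the genes that grew and 129 of those that shrank were within 0.2 above it, and 205 that stayed were within 0.2 below it. Without WT_TAM replicate 4 and KO_TAM replicate 2, 8664 genes had a difference, of which 6291 stayed (72.6%), 137 grew (1.58%), 233 shrank (2.69%) and 5 reversed. Of the 345 and the 463 genes, 161 and 161 then stayed. In that smaller set 14 genes that grew, 24 that shrank and 11 that stayed were called between KO_TAM and WT_TAM.

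The genes that rose most in Sin1-deleted tumor macrophages over spleen were an arginase, matrix products and mediators of inflammation. Arg1 (chr10:24915221-24927484, minus strand, GRCm38) encodes arginase 1, which breaks down arginine. Its level was 10588, 7618, 10310.5 and 6662 CPM in KO_TAM and 1.06, 0.772 and 0.733 CPM in WT_SP. The 7 values did not overlap, and the log2 difference was 12.65 ± 0.18 (SE; limma adjusted p = 7.62e-10). WT_TAM minus WT_SP for Arg1 was 12.10, so this difference stayed. Nos2 (chr11:78920787-78960254, plus strand, GRCm38) encodes the inducible nitric oxide synthase that uses the same amino acid. It was at 1506, 1739.6, 983 and 595 CPM in KO_TAM, 437, 566, 243 and 118 CPM in WT_TAM and 0.211, 0.232 and 0.293 CPM in WT_SP, where only 10 reads stand behind it. Nos2 rose by 10.55 ± 0.32 on the log2 scale (SE; limma adjusted p = 3.61e-08), against 8.61 in WT_TAM, and each KO_TAM library lay above each WT_TAM library. This gap of 1.94 was not called (limma adjusted p = 0.134) and was 1.29 without the 2 libraries that stood apart (limma adjusted p = 0.226). Slc7a2, a transporter that brings arginine into the cell, rose by 7.15 ± 0.32 (SE; limma adjusted p = 2.52e-07), with 1208, 519.9, 872 and 474 CPM in KO_TAM and 5.64, 3.32 and 4.91 CPM in WT_SP.

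Mmp12, the macrophage elastase gene (chr9:7344381-7369499, plus strand, GRCm38), was at 11794, 9423, 9095 and 8148 CPM in KO_TAM, 2386, 5918, 3074 and 1584 CPM in WT_TAM and 3.31, 2.93 and 3.96 CPM in WT_SP. It rose by 11.26 ± 0.15 over spleen (SE; limma adjusted p = 7.5e-10), against 9.54 in WT_TAM. All KO_TAM values lay above all WT_TAM values, a gap of 1.73 that stayed above 1 without the 2 libraries (1.44) and was called in neither set (limma adjusted p = 0.109 and 0.0868). Spp1, which encodes the secreted phosphoprotein osteopontin, was at 13011, 5222, 12540.3 and 16461 CPM in KO_TAM and 8.39, 2.39 and 1.39 CPM in WT_SP and rose by 11.54 ± 0.53 (SE; limma adjusted p = 2.87e-07). KO_TAM minus WT_TAM for Spp1 was 0.25, and the difference from spleen stayed. Retnla, a secreted protein induced by interleukin 4, was at 853, 3265, 1413 and 1520.2 CPM in KO_TAM, 903, 691, 442 and 204 in WT_TAM and 0.211, 0.232 and 0.0733 in WT_SP. The KO_TAM and WT_TAM ranges of Retnla overlapped, and its gap of 1.68 was 0.91, within the margin, without the 2 libraries. Inhba, a subunit of activin, was at 783, 737, 369.7 and 234 CPM in KO_TAM and 169, 224, 105 and 70 CPM in WT_TAM, with no overlap, and 0.282, 0.309 and 0.88 CPM in WT_SP. Its gap between KO_TAM and WT_TAM was 1.87, and 1.36 without the 2 libraries (limma adjusted p = 0.275), called in neither set.

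**Figure D2:**
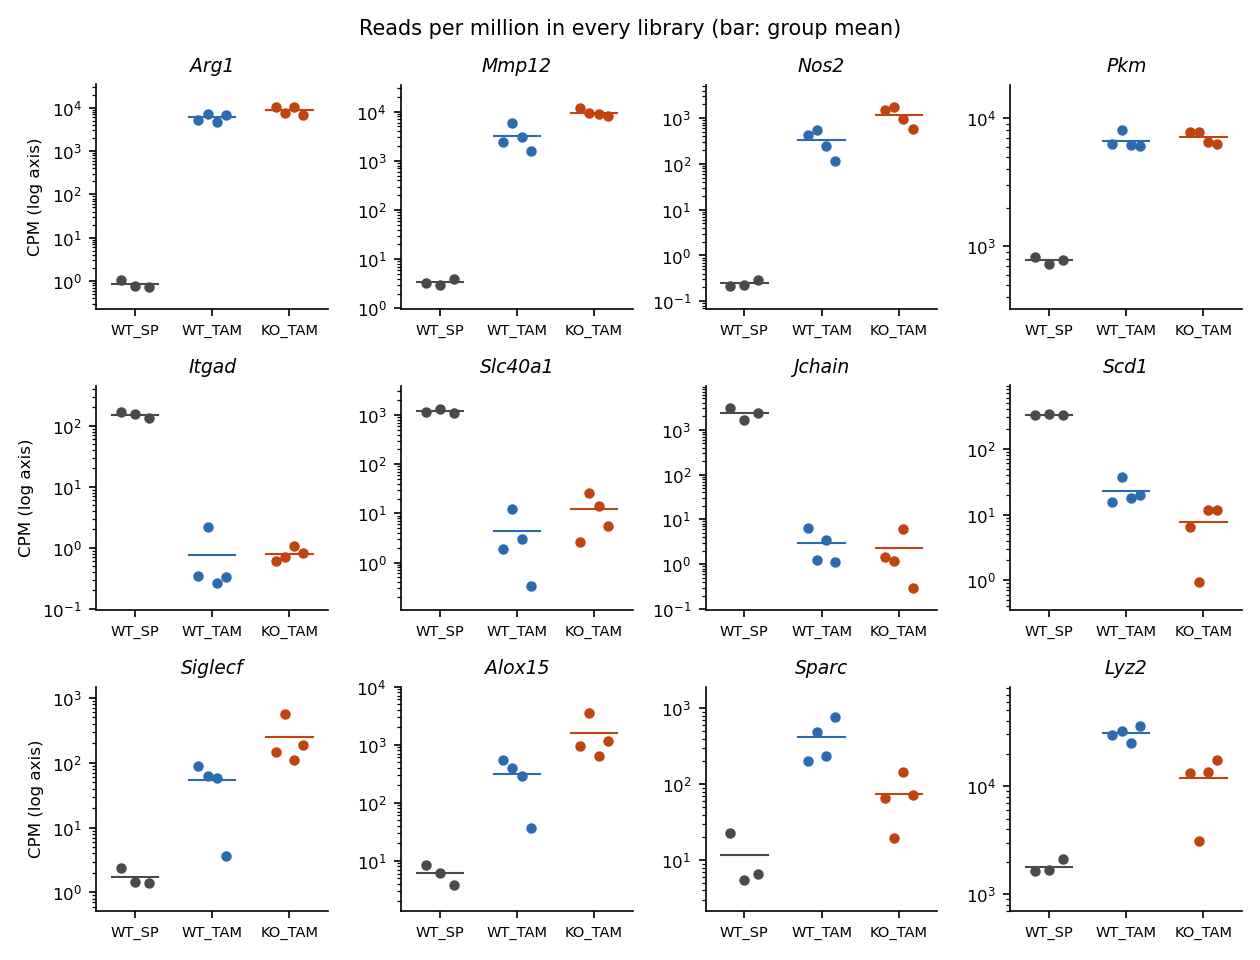
Each panel is a gene, each point a library, and the y axis is CPM on a log scale. KO_TAM, WT_TAM and WT_SP are side by side and bars mark group means. Arg1, Mmp12, Nos2 and Pkm lie far above WT_SP in both tumor groups, Itgad, Slc40a1 and Jchain far below, and Siglecf, Alox15, Sparc and Lyz2 separate KO_TAM from WT_TAM.

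Of 24 genes known from tumor and lipid-associated macrophages, all tested, 22 rose and 1, the lymphocyte gene Cd5, fell (median 4.43, and 4.23 in WT_TAM). Trem2, a lipid receptor, Gpnmb, a lysosomal glycoprotein, and Fn1, fibronectin, rose by 7.04, 5.84 and 7.06. In this list 19 differences stayed, 3 grew and 0 shrank.

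Genes of alternative activation and suppression rose as a group. Of 25 listed, 24 were tested, 19 rose and 2 fell, with a median log2 difference of 3.23 against -0.03 over all tested genes (-0.01 for WT_TAM minus WT_SP and 0.01 for KO_TAM minus WT_TAM). The scavenger receptor gene Msr1 rose by 8.00, Il1rn, an inhibitor of interleukin 1, by 7.72, and Cd274, which encodes the checkpoint ligand PD-L1, by 3.88. Irf4 and Pparg fell (log2 differences of -3.10 and -1.66). With all libraries 14 of these differences stayed, 5 grew and 1 shrank, and without the 2 libraries 18 stayed and 2 grew. Of 24 inflammatory cytokines and mediators 20 were tested, 16 rose and 3 fell (median 4.07). Il1b was at 1869.5, 1258, 1383 and 1456 CPM in KO_TAM, 1115, 1849, 1662 and 1021 in WT_TAM and 66.2, 71.6 and 60.9 in WT_SP and rose by 4.47 ± 0.15 (SE; limma adjusted p = 5.11e-08). Its KO_TAM and WT_TAM values overlapped. Ptgs2, the inducible enzyme of prostaglandin synthesis, rose by 6.83, Tnf by 3.47 and Il6 by 3.75. The 3 that fell were Il18, at 12, 10.2, 15.3 and 9.07 CPM in KO_TAM and 56.4, 61.6 and 53.6 in WT_SP, and the interleukin 12 subunits Il12a and Il12b.

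Chemokines formed another raised group. Of 18 CC chemokines and receptors 13 rose and 2 fell (median 5.06), and of 14 CXC chemokines and receptors 13 were tested, 8 rose and 2 fell (median 3.78). The monocyte attractants Ccl7, Ccl8, Ccl2 and Ccl12 rose by 9.87, 8.66, 8.21 and 7.87, and all 4 stayed. Ccl6 was at 6043, 10623, 6391 and 6048 CPM in KO_TAM, 2978, 3169, 2699.5 and 2581 in WT_TAM and 86.1, 137 and 86.7 in WT_SP. It rose by 6.12 ± 0.24 over spleen (SE; limma adjusted p = 1.36e-07), and every KO_TAM library lay above every WT_TAM library. Its difference from spleen grew: KO_TAM minus WT_TAM was 1.31 with all libraries (limma adjusted p = 0.109) and 1.07 without the 2 libraries (limma adjusted p = 0.0207). The neutrophil attractants Cxcl2, Cxcl1 and Cxcl3 rose by 7.70, 8.25 and 8.66. Cxcl2 was at 3428, 2314, 2420.2 and 2240.5 CPM in KO_TAM and 1567, 1988, 1703 and 1234 in WT_TAM, with no overlap, and the gap of 0.68 was within the margin. Ccr7, the receptor that guides cells to lymph nodes, fell to 7.92, 22.3, 11.3 and 20.2 CPM in KO_TAM from 373, 415 and 412 in WT_SP, and Ccl5 fell by 1.21.

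Glycolysis and hypoxia genes were higher than in spleen in both tumor groups, at similar levels. All 28 listed genes were tested, 27 were called higher and 0 lower, with a median of 2.78, and 27 were called higher in WT_TAM too, with a median of 2.94. All 27 differences stayed, with all libraries and without the 2 that stood apart, and the median of KO_TAM minus WT_TAM was 0.01. Adm was the member that was not called (0.80). Pkm, the pyruvate kinase gene (chr9:59656368-59679375, plus strand, GRCm38), was at 7798, 7814, 6514 and 6251 CPM in KO_TAM, 6322, 8092, 6194 and 6009.6 in WT_TAM and 824, 733 and 780.5 in WT_SP. It rose by 3.18 ± 0.13 (SE; limma adjusted p = 1.36e-07), and the tumor groups overlapped. Eno1, an enolase, was at 6620.3, 5571, 5707 and 5571 CPM in KO_TAM and 866, 780.1 and 770.3 in WT_SP and rose by 2.86 ± 0.12 (SE; limma adjusted p = 1.49e-07). Vegfa, the angiogenic factor induced by low oxygen, was at 452, 109, 290 and 223 CPM in KO_TAM and 2.33, 1.62 and 0.953 in WT_SP and rose by 6.85 ± 0.43 (SE; limma adjusted p = 1.85e-06). The glucose transporter Slc2a1 and the lactate exporter Slc16a3 rose by 3.91 and 5.83. Hif1a, the oxygen-regulated factor itself, rose by 2.30 against 1.37 in WT_TAM. With library totals as the only scale the same count, 27, was called.

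Promoters of 2 of these enzymes show the short core that hypoxia-inducible factors bind, ACGTG. They were chosen after their values were seen, because they hold it more than once: lactate dehydrogenase A (Ldha, raised by 2.61) and phosphoglycerate kinase 1 (Pgk1, raised by 3.09). The windows are the 250 bases upstream of the most upstream RefSeq start, GRCm38.p6, 5′ to 3′ on the gene's strand. Capitals mark ACGTG on either strand, and CACGTG, which holds it on both strands, is 1 run. Ldha is chr7:46845554-46845803, plus strand, and Pgk1 is chrX:106186850-106187099, plus strand.
Ldha: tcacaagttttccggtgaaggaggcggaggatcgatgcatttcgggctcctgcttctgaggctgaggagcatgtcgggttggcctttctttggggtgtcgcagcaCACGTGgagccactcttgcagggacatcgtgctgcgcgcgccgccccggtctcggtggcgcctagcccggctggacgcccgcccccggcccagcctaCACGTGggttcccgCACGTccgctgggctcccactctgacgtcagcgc
Pgk1: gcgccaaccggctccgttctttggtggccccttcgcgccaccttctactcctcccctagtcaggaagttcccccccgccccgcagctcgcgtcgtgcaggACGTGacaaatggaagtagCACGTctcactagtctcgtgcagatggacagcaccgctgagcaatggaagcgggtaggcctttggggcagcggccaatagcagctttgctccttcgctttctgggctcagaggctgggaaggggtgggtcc
ACGTG occurred in 16 of the 26 glycolysis and hypoxia genes with a window (61.5%), against 18.5% of 27025 genes with a window and 25.1% of the 9239 of them that were tested. A match is a description of these letters, not a site or a cause.

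Lysosomal genes were mostly higher than in spleen. Of 31 lysosome and cathepsin genes, all tested, 27 rose and 1 fell (median 1.50). In WT_TAM 27 rose and 2 fell (median 1.60). Psap, the precursor of lipid-degrading activator proteins, was at 9549.6, 7361, 6244 and 5629 CPM in KO_TAM and 2207, 2054 and 2038 in WT_SP and rose by 1.75 ± 0.18 (SE; limma adjusted p = 3.95e-05). The cathepsins Ctsk and Ctsl rose by 5.60 and 5.44, and Ctsb, at 5829, 6157, 5828 and 4072 CPM in KO_TAM, by 1.19. Atp6v0d2, a proton pump subunit, was at 167, 148, 146 and 83.6 CPM in KO_TAM, 66.3, 67.3, 46.7 and 39 in WT_TAM and 0.987, 0.926 and 0.66 in WT_SP. It was the member whose difference grew. KO_TAM lay above WT_TAM by 1.30 with all libraries (limma adjusted p = 0.11) and by 1.09 without the 2 libraries, with no overlap of the tumor groups. Tfeb, a factor that drives lysosomal genes, was the 1 that fell, from 98.3, 101 and 104 CPM in WT_SP to 61.6, 83.1, 52 and 53.4 in KO_TAM.

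Of 26 Toll-like receptors, lectins and scavenger receptors 25 were tested, 19 rose and 2 fell (median 2.23). Msr1 was at 1619, 1702, 1555 and 1323 CPM in KO_TAM and 5, 6.18 and 5.43 in WT_SP. Cd14, a co-receptor for endotoxin, was at 3283, 2623, 2378 and 2188 CPM in KO_TAM and 55.8, 35.1 and 32.9 in WT_SP and rose by 5.99 ± 0.21 (SE; limma adjusted p = 7.09e-08). Clec7a, the receptor for fungal glucan, rose by 5.85, and Tlr2 and Tlr4 by 4.03 and 2.23. Those that fell were Tlr1 and Marco, a scavenger receptor of marginal zone macrophages, at 0, 1.42, 0.859 and 0.101 CPM in KO_TAM and 13.1, 20.9 and 14.6 in WT_SP. Among 23 complement and Fc receptor genes 22 were tested, 18 rose and 3 fell (median 2.32). C3ar1 rose by 8.28 and Fcgr3, an activating receptor for immunoglobulin, by 3.68. The differences of the 3 C1q chains shrank: C1qb was at 2217, 1394, 2538 and 2328 CPM in KO_TAM, 4407, 3125, 2984 and 8113 in WT_TAM and 803, 795 and 656 in WT_SP. KO_TAM minus WT_TAM for C1qb was -1.05 with all libraries (limma adjusted p = 0.182) and -0.55 without the 2 libraries, where all 3 chains counted as staying.

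Every one of the 24 matrix remodelling and plasminogen genes was called higher than in WT_SP (median 4.50), and WT_TAM raised 22 of them (median 4.86). In this list 13 differences stayed, 7 grew and 4 shrank with all libraries, and 18, 3 and 3 without the 2. Besides Mmp12, the collagenase Mmp13 grew: it was at 1125, 1163, 883 and 357 CPM in KO_TAM, 77.6, 337, 184 and 48.9 in WT_TAM and 3.38, 2.32 and 1.32 in WT_SP, with no overlap of the tumor groups. KO_TAM minus WT_TAM was 2.69 for Mmp13 (limma adjusted p = 0.112) and 2.06 without the 2 libraries (limma adjusted p = 0.245). Serpinb2, an inhibitor of plasminogen activators, was at 179, 620.5, 77 and 82 CPM in KO_TAM, and its gap to WT_TAM moved from 2.44 to 0.93 without the 2 libraries. Those that shrank were Mmp2, Sparc, Timp2 and Timp3, which fibroblasts also make.

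Genes that mark the macrophages of the spleen were mostly lower in the tumor. Of 20 red pulp and marginal zone genes 18 were tested, 11 fell and 5 rose (median -2.40), and the counts were the same without KO_TAM replicate 2. Of these differences 9 stayed and 4 grew (Axl, Marco, Fcna and Vcam1), and without both libraries that stood apart 13 stayed and 2 grew. Marco lay near the floor in KO_TAM, and its gap to WT_TAM of -1.46 ranged from -2.78 to -0.70 over the alternative settings. Itgad, the integrin alpha D chain (chr7:128154376-128223816, plus strand, GRCm38), was at 0.61, 0.708, 1.05 and 0.806 CPM in KO_TAM, 0.338, 2.16, 0.262 and 0.328 in WT_TAM and 165, 156 and 135 in WT_SP. It fell by 6.89 ± 0.20 (SE; limma adjusted p = 2.44e-08). Spic, the factor of red pulp macrophages, was at 0.348, 0.236, 3.15 and 1.31 CPM in KO_TAM and 159, 176 and 152 in WT_SP and fell by 6.83 (limma adjusted p = 4.78e-06). Cd163, the hemoglobin scavenger receptor, Cd5l and Vcam1 fell too, with log2 differences of -3.38, -6.09 and -5.43. The 5 that rose were Clec4n, Adgre1, Cd209a, Siglec1 and Csf1r, and Csf1r, which rose by 0.64, was not called with library totals as the only scale.

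Iron genes moved both ways, as did all tested genes (28.3% higher and 26.2% lower). Slc40a1, which encodes ferroportin, the exporter of iron, was at 2.61, 25.4, 14.3 and 5.64 CPM in KO_TAM, 1.86, 12.4, 2.97 and 0.328 in WT_TAM and 1155, 1308 and 1114 in WT_SP, with no overlap between tumor and spleen. It fell by 7.01 ± 0.60 (SE; limma adjusted p = 1.37e-05). Fth1, the ferritin heavy chain that stores iron, was at 24922, 25329, 20935 and 19297 CPM in KO_TAM and 3023, 3254 and 3040.3 in WT_SP and rose by 2.86 ± 0.13 (SE; limma adjusted p = 2.84e-07). Its partner Ftl1 rose by 1.37. Hmox1, which opens heme, fell by 1.39. Of 19 iron genes 16 were tested, 8 rose and 2 fell, and 8 differences stayed, 0 grew and 1, that of Slc40a1, shrank. Without the 2 libraries Slc40a1 stayed.

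Lymphocyte markers gave the lowest list medians besides the erythroid one. Of 22 B cell and plasma cell markers 15 were tested, 13 fell and 2 rose (median -7.02), and of 25 T cell and natural killer cell markers 22 fell and 1, Gzmb, rose (median -3.50). Jchain, the joining chain of secreted antibody (chr5:88519809-88527891, minus strand, GRCm38), was at 1.48, 1.18, 6.11 and 0.302 CPM in KO_TAM, 6.33, 1.27, 3.41 and 1.15 in WT_TAM and 3050, 1684 and 2366 in WT_SP and fell by 10.13 ± 0.58 (SE; limma adjusted p = 1.1e-06). Cd79a, part of the B cell receptor, was at 3.31, 9.8, 19.5 and 26.4 CPM in KO_TAM and 1885, 1995 and 2286 in WT_SP. Lck, a T cell kinase, was at 16.5, 27.8, 22.1 and 28.7 CPM in KO_TAM and 397, 395 and 370.1 in WT_SP. Dendritic cell markers fell too, 13 of 17 tested of 18 listed, with 1 higher, and Siglech, of plasmacytoid cells, was at 0.0871, 0, 1.81 and 0.806 CPM in KO_TAM and 29.5, 30.7 and 31.5 in WT_SP. The sort of WT_SP removed TCRβ+ cells and set no B cell marker. How much of each fall between tumor and spleen comes with these lymphocyte transcripts was not tested.

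Of 16 MHC class II genes 15 were tested, 4 rose and 6 fell (median -0.08, and 0.59 in WT_TAM). Over all tested genes 28.3% were higher and 26.2% lower. The class II medians were 0.02 in KO_TAM and 0.49 in WT_TAM without the 2 libraries that stood apart. H2-Ab1, a class II beta chain, was at 6705, 6179, 7077 and 5844 CPM in KO_TAM, 12410.4, 8632, 10723 and 10558 in WT_TAM and 6228, 5715 and 6177 in WT_SP. KO_TAM overlapped WT_SP and its H2-Ab1 difference was 0.09 ± 0.12 (SE; limma adjusted p = 0.525), which becomes -0.34 (limma adjusted p = 0.0291) with library totals as the only scale. WT_TAM lay above both, and its difference from spleen of 0.80 was called (limma adjusted p = 0.00526). KO_TAM minus WT_TAM was -0.71 with no overlap of the libraries, and was not called (limma adjusted p = 0.131). This gap was -0.68 without the 2 libraries (limma adjusted p = 0.0635). H2-Ob and H2-Oa, subunits known from B cells, fell (log2 differences of -5.82 and -5.49). Cd80, a costimulatory ligand, was at 52, 112, 49.4 and 50.8 CPM in KO_TAM, 28.5, 33.7, 37 and 9.35 in WT_TAM and 4.3, 2.7 and 3.37 in WT_SP. Its gap between KO_TAM and WT_TAM was 1.34 with all libraries and 0.62, within the margin, without the 2. Of 19 class I genes 18 were tested, 10 rose and 0 fell (median 0.39), and with library totals only 3 rose and 5 fell. H2-D1 was at 9433, 12443, 8942 and 8140.1 CPM in KO_TAM, 9511, 9136, 7970.3 and 4364 in WT_TAM and 4448, 4537 and 4826 in WT_SP.

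Interferon genes were set out in separate lists. Type I interferon-stimulated genes moved both ways, as did all tested genes (28.3% higher and 26.2% lower). Of 67 listed, 62 were tested. In KO_TAM 23 were higher and 15 lower than in WT_SP, with a median of 0.20, and 24 were not called. WT_TAM had 13 higher and 12 lower, with a median of -0.07. The median of KO_TAM minus WT_TAM was 0.34 with all libraries and -0.00 without the 2 that stood apart, when KO_TAM had 23 higher and 17 lower (median 0.09) and WT_TAM 20 and 15 (median 0.18). In that smaller set 31 differences stayed, 1 grew and 0 shrank. Library totals as the only scale moved the median of all genes from -0.03 to -0.44 and that of this list to -0.22, with 15 higher and 25 lower, so only unequal changes within the list can be read.

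Those that rose included Ifi204, a DNA sensor, at 132, 118, 144 and 91.2 CPM in KO_TAM, 93.2, 97.8, 110.2 and 56.6 in WT_TAM and 26.6, 25 and 28.7 in WT_SP. Ifitm3, which blocks virus entry, rose by 2.08 ± 0.12 (SE; limma adjusted p = 9.03e-07) from 192, 196 and 240.2 CPM in WT_SP to 851, 882, 917 and 873 in KO_TAM. Those that fell included Pml, a nuclear body protein, at 42.8, 52.9, 39.1 and 37.4 CPM in KO_TAM, 45.8, 50, 38.5 and 22.6 in WT_TAM and 244, 220.5 and 255 in WT_SP, and Ly6e, at 1271, 1170.5, 1456 and 1624 CPM in KO_TAM and 2699, 3003 and 3076 in WT_SP. The log2 differences of Pml and Ly6e were -2.47 and -1.09 (limma adjusted p = 9e-07 and 0.000164). Of the core interferon genes, Isg15 rose by 0.55, Ifit1 by 0.99 and Rsad2 by 1.45, Ifit3 fell by 1.15, and Irf7 and Oas2, at 0.22 and 0.67, were not called.

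Genes that interferon gamma induces were mostly higher. Of 23 listed 19 were tested, 13 rose and 1 fell (median 1.00), against 7 and 1 in WT_TAM (median 0.53). Without the 2 libraries the counts were 13 and 1 in KO_TAM and 14 and 1 in WT_TAM, with medians of 0.96 and 0.97. Cxcl10, which attracts T cells through CXCR3 (chr5:92346638-92348889, minus strand, GRCm38), was at 164, 198, 193 and 217 CPM in KO_TAM, 209, 170, 203 and 158 in WT_TAM and 4.72, 5.71 and 4.4 in WT_SP. It rose by 5.15 ± 0.14 (SE; limma adjusted p = 2e-08), with overlapping tumor groups. Gbp2, a guanylate-binding GTPase, was at 534, 729.9, 619 and 405 CPM in KO_TAM, 448, 376, 349 and 295 in WT_TAM and 68.9, 48.1 and 53.8 in WT_SP and rose by 3.30 ± 0.21 (SE; limma adjusted p = 1.84e-06). Irf1 was at 569.7, 896, 531 and 383 CPM in KO_TAM, 586, 371, 413 and 152 in WT_TAM and 233, 216 and 264 in WT_SP. The 1 that fell was Ciita, the activator of class II genes, from 325, 307 and 354 CPM in WT_SP to 64.4, 47.1, 70.1 and 49.4 in KO_TAM.

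Genes of interferon production and sensing were divided, as were all tested genes (28.3% higher and 26.2% lower). Of 27 listed 23 were tested, 8 rose and 7 fell (median -0.21, and -0.30 in WT_TAM), and 9 stayed with 0 growing or shrinking. In WT_TAM 3 were called higher and 6 lower. With the 2 libraries left out 14 stayed, and the counts were 9 and 8 in KO_TAM and 7 and 7 in WT_TAM (medians -0.17 and -0.07). The receptor chains Ifnar1 and Ifnar2 rose by 1.40 and 0.79, while Irf3, the factor that starts interferon transcription, and the adaptor Mavs fell (log2 differences of -1.20 and -0.96).

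For interferon targets the promoters of Cxcl10, Gbp2 and Isg15 are shown in the same window and build, with capitals for the core of the interferon-stimulated response element, GAAA followed by any 2 bases and GAAA, searched on both strands (a match on the opposite strand reads TTTC, 2 bases and TTTC). They were chosen after their values were seen, as 1 chemokine, 1 GTPase and 1 type I target that hold it. Cxcl10 is chr5:92348890-92349139, minus strand, Gbp2 is chr3:142620413-142620662, plus strand, and Isg15 is chr4:156200819-156201068, minus strand, where 3 overlapping matches form 1 run.
Cxcl10: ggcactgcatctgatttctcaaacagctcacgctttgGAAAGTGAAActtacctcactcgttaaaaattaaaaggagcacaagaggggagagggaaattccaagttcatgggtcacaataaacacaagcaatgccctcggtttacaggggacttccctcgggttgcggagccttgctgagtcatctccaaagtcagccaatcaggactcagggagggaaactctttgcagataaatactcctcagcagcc
Gbp2: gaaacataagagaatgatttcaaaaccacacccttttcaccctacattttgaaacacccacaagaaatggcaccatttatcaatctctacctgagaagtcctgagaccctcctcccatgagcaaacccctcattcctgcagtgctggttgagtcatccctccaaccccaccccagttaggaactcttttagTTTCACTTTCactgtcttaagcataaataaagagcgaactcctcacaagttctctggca
Isg15: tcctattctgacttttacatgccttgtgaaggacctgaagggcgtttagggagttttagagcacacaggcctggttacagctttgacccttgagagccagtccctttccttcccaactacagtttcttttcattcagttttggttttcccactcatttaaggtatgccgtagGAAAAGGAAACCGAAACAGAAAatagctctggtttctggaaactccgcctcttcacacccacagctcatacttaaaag
The motif was in 10 of 13 interferon gamma genes with a window (76.9%) and 21 of 52 type I genes (40.4%), against 3.46% of all 27025 and 3.39% of the 9239 tested. As above, a match describes letters and not a bound site. Cxcl10 and Isg15 both hold it and rose by 5.15 and 0.55.

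Nearly all values of both tables correspond to whole reads, but 98 cells of the genotype table, 49 in WT_TAM and 49 in KO_TAM, in 35 genes, did not. Nearly all of them differed by a whole number from a value that does. For WT_TAM the same libraries in the site table gave the reads, and for KO_TAM the reads were restored by taking off or adding back that number. The exceptions were the Fdps cells of KO_TAM replicates 1 and 3. There a leading digit was put back, because this fitted the size factors of the genotype table more closely. No source used here says how these cells arose. All values above and below use restored reads. With these cells as deposited, KO_TAM minus WT_TAM was lower than restored in all 12 cholesterol or fatty acid genes that had such cells and a value, and higher in all 22 others. As deposited, 4 genes were called between KO_TAM and WT_TAM, among them Tbk1 (2.23, limma adjusted p = 0.00182), Irf1 (2.05, limma adjusted p = 0.00929) and Chuk (1.97, limma adjusted p = 0.0257). Restored, the gaps of Tbk1, Irf1 and Chuk were 0.77, 0.73 and 0.77, and 0 of the 34 genes were called. Against WT_SP, with depths and scale as in the main analysis, the type I list had 25 higher and 15 lower with the cells as deposited, and the cholesterol list 8 and 3. As deposited, KO_TAM minus WT_SP was 1.43 for Irf1, 3.64 for Gbp2, 0.64 for Isg15, 1.82 for Rsad2 and -0.92 for Srebf2, against 1.26, 3.30, 0.55, 1.45 and -0.72 restored. When the deposited values were instead scaled gene by gene by the WT_TAM ratio as they stand, so that the altered WT_TAM cells enter the ratio, Irf1 was 2.70, Gbp2 3.16 and Srebf2 -0.81.

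Fewer sterol genes were called higher than spleen in KO_TAM than in WT_TAM. Of 26 cholesterol genes 24 were tested, 9 rose and 2 fell in KO_TAM (median 0.54), against 16 and 1 in WT_TAM (median 1.34), and the median of KO_TAM minus WT_TAM was -0.77, with 0 of 24 called. In this list 6 differences stayed, 0 grew and 6 shrank. Among the 6 were those of Sqle, Cyp51, Fdft1, Mvk and Stard4. Without the 2 libraries 15 rose and 2 fell in KO_TAM and 21 and 2 in WT_TAM, the median of KO_TAM minus WT_TAM was -0.60, 16 stayed, 0 shrank past the margin, and 2 were called lower in KO_TAM than in WT_TAM. Srebf2, the factor that drives the pathway, was at 202, 163, 188 and 181 CPM in KO_TAM, below each of the WT_TAM values of 245, 259.5, 268 and 305 and the WT_SP values of 301, 295 and 309.9. It fell by 0.72 ± 0.11 against spleen (SE; limma adjusted p = 0.000521), and its gap to WT_TAM of -0.55 was not called (limma adjusted p = 0.169). That gap was -0.44 without the 2 libraries (limma adjusted p = 0.0721).

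Fatty acid genes were mixed, as were all tested genes (28.3% higher and 26.2% lower), with 6 of 19 tested (21 listed) higher and 4 lower (median 0.13). Scd1, the desaturase that makes oleate (chr19:44394455-44407879, minus strand, GRCm38), was at 6.36, 0.945, 11.6 and 11.9 CPM in KO_TAM, 15.5, 36.7, 18.1 and 19.8 in WT_TAM and 323, 342 and 322 in WT_SP. It fell by 5.73 ± 0.65 (SE; limma adjusted p = 8.03e-05), against a log2 difference of -3.92 in WT_TAM, and the 3 groups did not overlap. KO_TAM replicate 2 was lowest, and KO_TAM minus WT_TAM moved from -1.81 to -1.14 without the 2 libraries (limma adjusted p = 0.206 and 0.135). Fasn, fatty acid synthase, fell by 1.55. Acly, which makes acetyl-CoA in the cytosol, was at 441, 446, 304 and 340.5 CPM in KO_TAM and 283, 249 and 245 in WT_SP and rose by 0.55 (limma adjusted p = 0.0168), a call lost in 4 of 26 settings, namely library totals only, all 3 groups in 1 fit, and without WT_SP replicate 2 or replicate 3 (highest limma adjusted p = 0.482). Genes of lipid uptake, storage and efflux were mostly higher, 17 of 24 tested (25 listed) with 2 lower (median 1.32 and 1.35 in WT_TAM). Apoe was at 3147, 1840.1, 3478 and 2575 CPM in KO_TAM, 5033, 3654, 3028 and 7860.1 in WT_TAM and 1157, 1269 and 1077 in WT_SP, and the liver X receptor gene Nr1h3 fell to 18.6, 22.4, 21.8 and 16.5 CPM from 81.5, 83.9 and 82.7.

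Of 20 ATF4 targets and amino acid transporters 19 were tested, 8 rose and 3 fell (median 0.52, and 1.36 in WT_TAM). Over all tested genes 28.3% were higher and 26.2% lower. The median of KO_TAM minus WT_TAM in this list was -0.58, and -0.37 without the 2 libraries that stood apart. Phgdh, the first enzyme of serine synthesis, was at 34, 14.8, 42.1 and 30.2 CPM in KO_TAM, 81.6, 119, 66.9 and 171 in WT_TAM and 164, 124 and 137 in WT_SP. It fell by 2.29 ± 0.31 against spleen (SE; limma adjusted p = 0.000231), while WT_TAM overlapped WT_SP (-0.45, limma adjusted p = 0.273). KO_TAM and WT_TAM did not overlap, with a gap of -1.84 (limma adjusted p = 0.109) that was -1.29 and called without the 2 libraries (limma adjusted p = 0.0397). Slc3a2, a shared chain of amino acid transporters, was at 649.6, 676, 552 and 489 CPM in KO_TAM and 155, 169 and 155 in WT_SP and stayed.

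**Figure D3:**
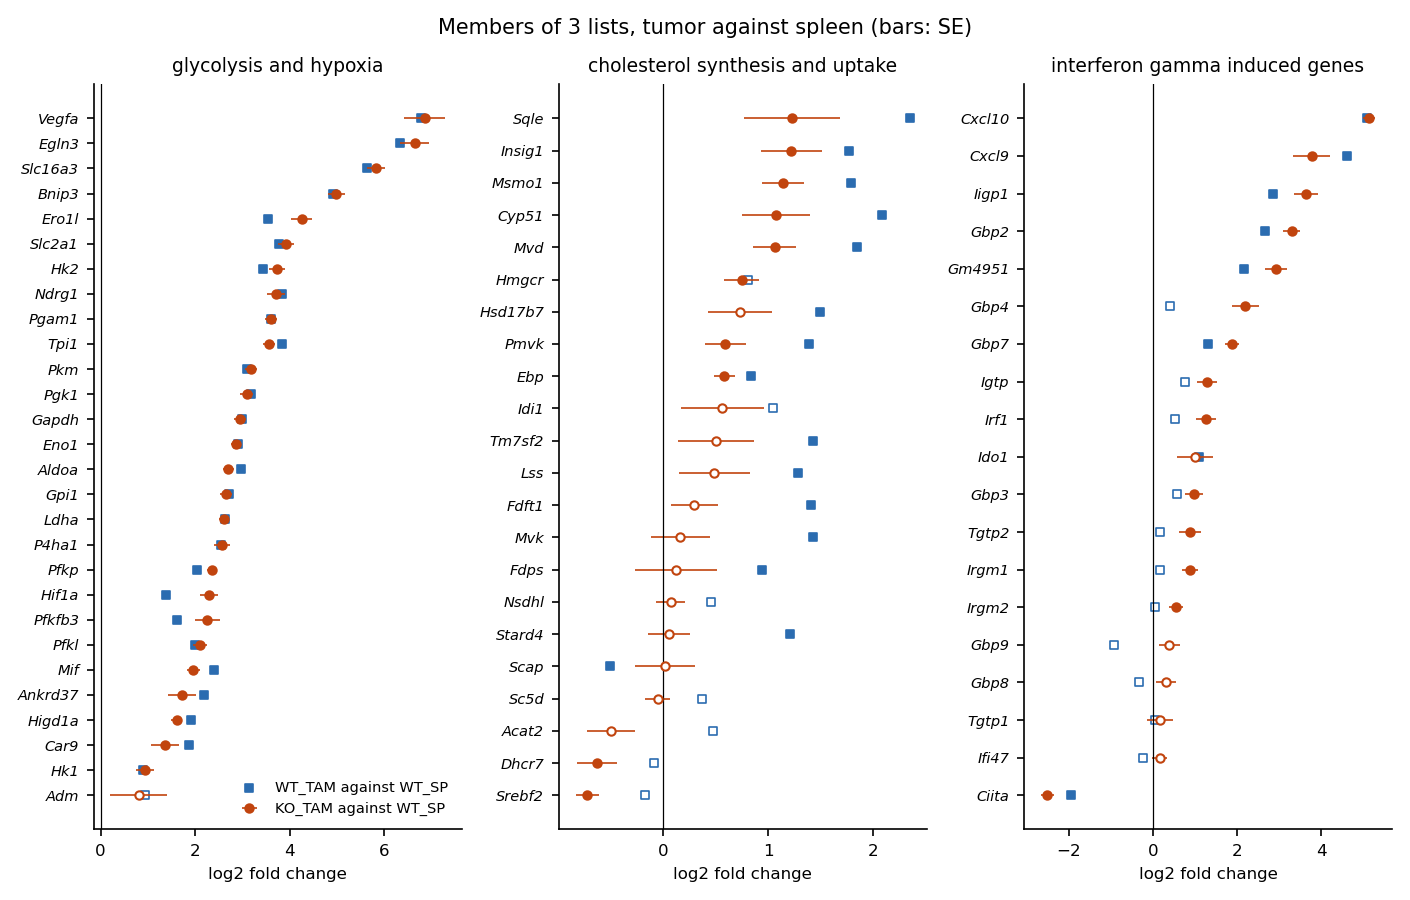
Each row is a gene, of those reported by name, of the glycolysis and hypoxia, cholesterol, or interferon gamma list, and the x axis is the log2 difference from WT_SP for KO_TAM, with its SE, and WT_TAM, on log2(CPM + 0.5), filled where called. The KO_TAM and WT_TAM points lie close for most glycolysis genes, with Hif1a, Pfkfb3 and Ero1l apart, while KO_TAM lies nearer to 0 than WT_TAM for most cholesterol genes.

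Genes of the mTOR complexes, AKT and FoxO were mixed, as were all tested genes (28.3% higher and 26.2% lower). Of the 34 listed, all tested, 10 were higher and 12 lower (median -0.12). The subunits Mtor and Rictor were not called. Rictor was at 74, 87.8, 70.4 and 68.4 CPM in KO_TAM, 62.3, 52.1, 57.1 and 21 in WT_TAM and 71.3, 85.9 and 88.1 in WT_SP, and Mtor was at 36, 26.7, 33.9 and 26.9 CPM in KO_TAM and 35.8, 32.7 and 33.2 in WT_SP. Prr5, another subunit of complex 2, was at 1.83, 1.65, 3.63 and 3.22 CPM in KO_TAM, 2.03, 3.92, 2.8 and 3.44 in WT_TAM and 92.3, 90.2 and 100.5 in WT_SP and fell by 5.00 ± 0.26 (SE; limma adjusted p = 5.45e-07), while its relative Prr5l rose by 2.24. Sgk1, a kinase that complex 2 activates, was at 2019, 1769, 1628 and 1341 CPM in KO_TAM, 1489, 1747, 1503 and 380 in WT_TAM and 65.1, 90.7 and 87.8 in WT_SP and rose by 4.37 ± 0.17 (SE; limma adjusted p = 1.36e-07). The FoxO factor Foxo1 fell by 2.95, as in WT_TAM (-2.80), and Foxo3 was not called.

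Factors of the macrophage lineage split: of 34, all tested, 22 rose and 9 fell (median 1.44), and 28 stayed. Nr4a2, a nuclear receptor induced early on stimulation, was at 78.8, 91.6, 57.2 and 49.6 CPM in KO_TAM and 0.634, 1.85 and 1.61 in WT_SP and rose by 5.25 ± 0.31 (SE; limma adjusted p = 1.19e-06). Cebpb and Spi1 rose by 2.19 and 1.66, and Bach2 and Id3 fell (log2 differences of -3.46 and -3.15). Irf4, an interferon regulatory family factor of B cells and of macrophages under interleukin 4, was at 4.79, 2.83, 9.16 and 8.56 CPM in KO_TAM and 45, 62.1 and 54.4 in WT_SP. Of 27 immediate early and heat shock genes, which handling of tissue also raises, 25 were tested, 16 rose and 4 fell (median 1.31). Their summed level was 21104 to 28299 CPM in KO_TAM and 5634 to 9000 in WT_SP, and their part in other raised genes was not tested.

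Few cell cycle genes were called between KO_TAM and spleen, against 54.5% of all tested genes. Of 41 DNA replication and mitosis genes 40 were tested: 3 rose and 4 fell in KO_TAM (median -0.20), against 18 and 1 in WT_TAM (median 0.75), and 14 shrank. Without the 2 libraries 7 rose and 4 fell in KO_TAM and 22 and 2 in WT_TAM (medians 0.08 and 0.56), and 0 shrank past the margin. Cdkn1a, an inhibitor of the cycle, rose most in the list, at 876, 1301, 792 and 683 CPM in KO_TAM, 732, 698, 671 and 1035 in WT_TAM and 7.54, 7.72 and 8.07 in WT_SP, a rise of 6.74 ± 0.20 (SE; limma adjusted p = 2.85e-08). Ccnd2 fell to 47.6, 33.4, 48 and 59.7 CPM from 182, 210.2 and 216. The ribosomal protein genes were lower in all 32 members in KO_TAM (median -1.13) and in 0 in WT_TAM (median -0.27), but without the 2 libraries in all 32 of both (medians -0.94 and -0.66), and all 32 then stayed. WT_TAM replicate 4 held 36950 CPM of these transcripts, against 12792 to 13944 in the rest of WT_TAM.

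The counts of the lists that follow stand beside 28.3% higher and 26.2% lower over all tested genes. Of 26 nuclear genes of oxidative phosphorylation 6 rose and 2 fell (median 0.11). Of 21 integrin and adhesion genes 9 rose and 9 fell (median 0.25). Itga5, the fibronectin receptor chain, and Itgam, which encodes CD11b, rose by 5.11 and 4.68, and Icam2 fell by 2.72. CD11b was a sorting marker set higher in tumor, so Itgam is no finding between sites. Of 20 neutrophil markers 12 were tested, and 8 were left out because a WT_TAM library was at 0. Among the 8 were the granule genes Ngp, Camp, Mpo and Elane and the alarmin gene S100a9, each higher in every WT_SP library than in every KO_TAM library, with means of 553 CPM in WT_SP and 0.836 in KO_TAM for Ngp and of 428 and 1.78 for S100a9, so the counts of tested markers do not describe the list. Of the 12, 6 rose, among them Trem1 at 5.45, and 6 fell, among them Ltf, a granule protein, by 8.38. Of 17 monocyte genes 6 rose and 9 fell, of 14 tested erythroid and platelet genes (23 listed) 2 and 11, of 10 tested endothelial genes (18 listed) 4 and 5, and of 14 tested carcinoma and epithelial genes (23 listed) 10 and 2. In the last list Cdh1, E-cadherin, was at 6.01, while Epcam fell and was at -2.44 without the 2 libraries that stood apart.

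**Figure D4:**
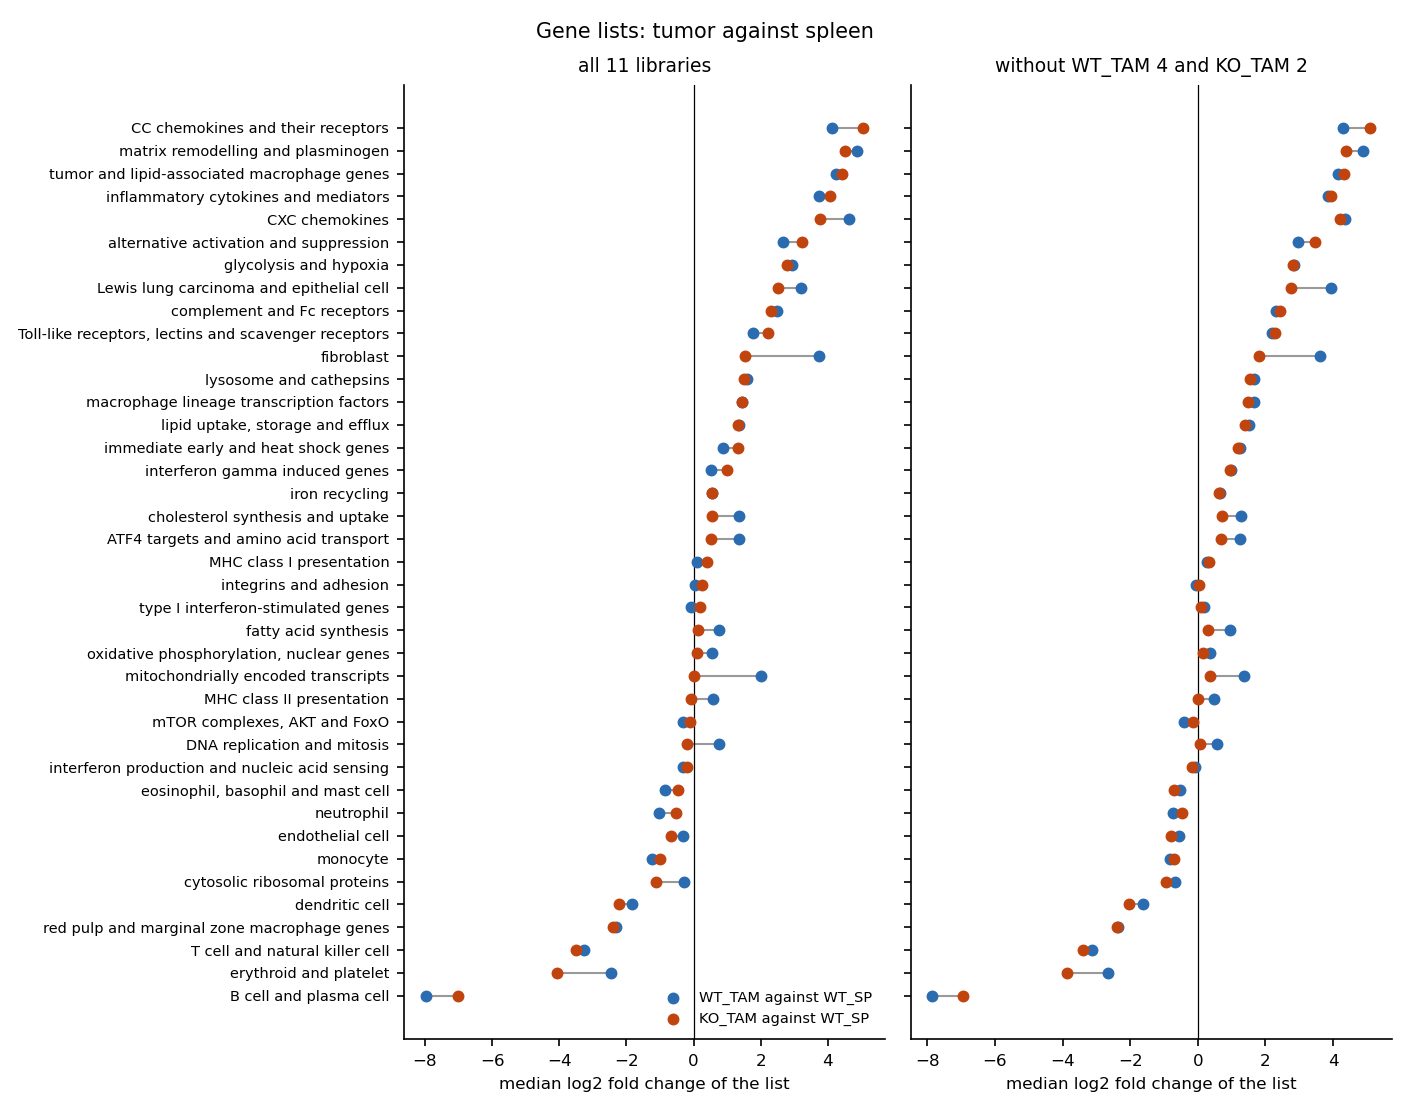
Each row is a gene list and each point the median log2 difference of its tested members, for KO_TAM minus WT_SP and WT_TAM minus WT_SP, with all libraries and without WT_TAM replicate 4 and KO_TAM replicate 2. The B cell list lies lowest, at -7.02 in KO_TAM, and the chemokine, matrix and tumor macrophage lists highest, while the ribosomal, mitochondrial and cell cycle medians of WT_TAM are among those that move when the 2 libraries are left out.

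Differences that grew included markers that eosinophils also carry. Siglecf, a sialic acid receptor (chr7:43351341-43359531, plus strand, GRCm38), was at 148, 556, 112 and 187 CPM in KO_TAM, 90.4, 61.5, 59.1 and 3.61 in WT_TAM and 2.4, 1.47 and 1.39 in WT_SP. It rose by 6.53 ± 0.47 over spleen (SE; limma adjusted p = 4.72e-06), with KO_TAM replicate 2 highest and WT_TAM replicate 4 lowest. Alox15, a lipoxygenase, showed the same order, at 939.6, 3558, 641 and 1151 CPM in KO_TAM and 534, 396, 289.6 and 37 in WT_TAM, and so did F5, coagulation factor V, at 354, 1354, 254 and 480.3 CPM in KO_TAM and 191, 149.5, 137 and 13.1 in WT_TAM. KO_TAM minus WT_TAM for Siglecf, Alox15 and F5 was 2.57, 2.52 and 2.52 with all libraries and 1.07, 1.17 and 1.15 without the 2, called in neither. Ccr3, the eotaxin receptor, was at 127, 469.8, 148 and 229 CPM in KO_TAM, 97.6, 78.2, 61 and 9.18 in WT_TAM and 159, 137 and 113 in WT_SP. The 21 eosinophil, basophil and mast cell markers include Siglecf and Ccr3, so their summed level moves with these genes in part by construction. It was 406 to 1378 CPM in KO_TAM, highest in replicate 2, 72.6 to 346 in WT_TAM, lowest in replicate 4, and 297 to 343 in WT_SP. None of the 21 was at 0 in all libraries of a group. Of 17 tested, 2 rose and 5 fell against WT_SP (28.3% and 26.2% over all tested genes), and their part in the differences that grew was not tested.

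Differences that shrank were led by stromal matrix genes. Sparc, a matrix glycoprotein gene (chr11:55394500-55423183, minus strand, GRCm38), was at 65.4, 19.5, 144 and 72.2 CPM in KO_TAM, 203, 487, 236 and 759 in WT_TAM and 22.6, 5.48 and 6.67 in WT_SP. It rose by 2.61 ± 0.65 over spleen in KO_TAM (SE; limma adjusted p = 0.00822) and by 5.20 in WT_TAM, and all KO_TAM values lay below all WT_TAM values. KO_TAM replicate 2 lay within the WT_SP range. Dcn, decorin, was at 16, 4.01, 50.4 and 25.2 CPM in KO_TAM, 60.7, 166, 68.5 and 212 in WT_TAM and 4.09, 0.772 and 0.807 in WT_SP, and Col3a1, a fibrillar collagen, at 91.6, 13.5, 168 and 50.2 CPM in KO_TAM and 304, 653, 282 and 219 in WT_TAM. KO_TAM minus WT_TAM for Sparc, Dcn and Col3a1 was -2.59, -2.64 and -2.53 with all libraries and -1.70, -1.67 and -2.05 without the 2, called in neither. Of 22 fibroblast markers 21 were tested: 12 rose and 1 fell in KO_TAM (median 1.53), 19 and 1 in WT_TAM (median 3.75), and 17 shrank. Without the 2 libraries 18 rose in KO_TAM and 15 still shrank, and 2 of the markers were called lower in KO_TAM than in WT_TAM. The summed level of the 22 markers, Sparc, Dcn and Col3a1 among them, was 119 to 741 CPM in KO_TAM. It was 1162 to 2479 CPM in WT_TAM and 53.4 to 144 in WT_SP. The tumor groups did not overlap, which in part restates Sparc, Dcn and Col3a1. None of the markers was at 0 in all libraries of a group. Fibroblasts lack CD45, on which both sorts selected. The part of such transcripts in the differences that shrank was not tested. Mitochondrial transcripts shrank in 8 of 13 tested and in 1 without the 2 libraries. Their summed level was 5026 to 20168 CPM in KO_TAM and 12315 to 79404 in WT_TAM, where replicates 2 and 4 were high.

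**Figure D5:**
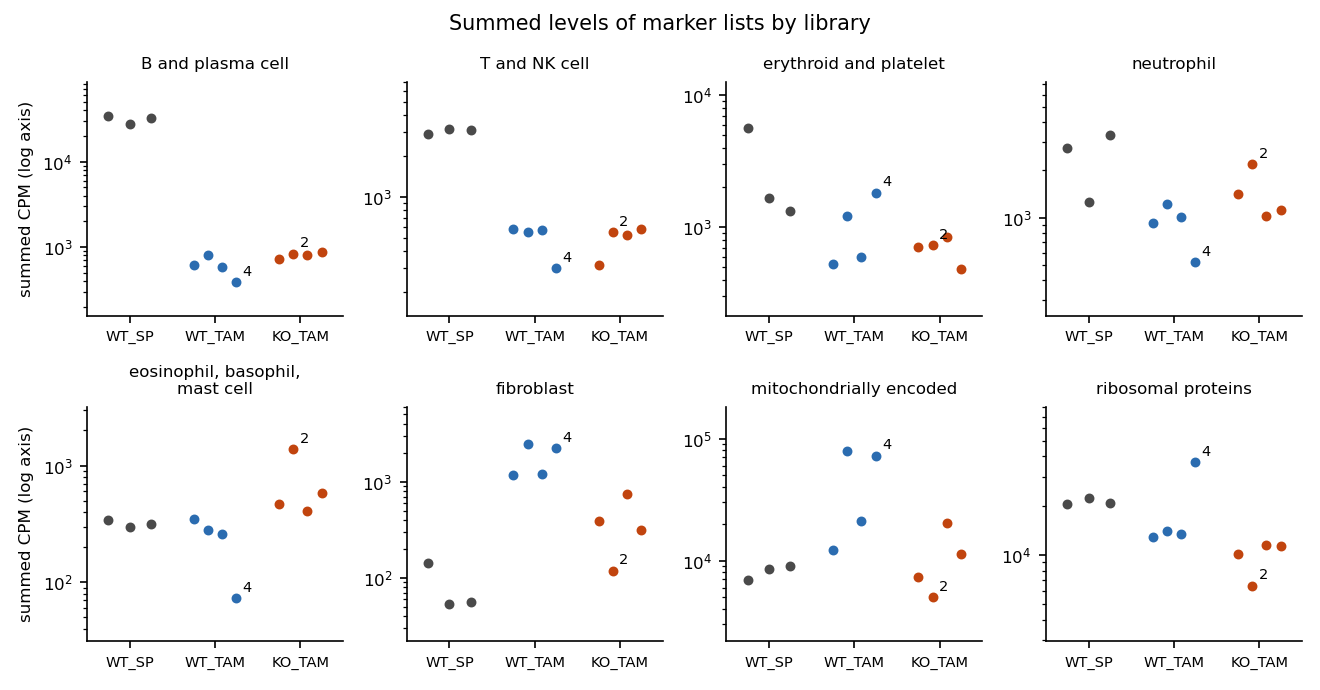
Each panel is a list of markers, each point the summed CPM of its members in a library, on a log axis, with WT_TAM replicate 4 and KO_TAM replicate 2 labelled by number. B cell and T cell sums are high in WT_SP, fibroblast sums separate WT_TAM from KO_TAM, and the eosinophil, basophil and mast cell sum is highest in KO_TAM replicate 2 and lowest in WT_TAM replicate 4.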

How the data were processed

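RNA was sequenced from sorted macrophages, and 2 tables were used, with 1 column per library. Their values are scores: per the submitters' processing notes the authors used the mm10 build and, among other tools, HISAT2, TopHat2, HTSeq and DESeq2, with roles, settings and annotation not given in the sources used here. From the deposited values, each score proved to be a read count divided by gene length and library scale and multiplied by a size factor. Genes without a length carry negative values, and 11124 such genes were left out of the 33340 joined. Reads were recovered from these steps, and 99.975% of 194727 nonzero values came out whole within 0.0002 reads or 1e-07 of the value. The 98 cells that did not were restored as described above. KO_TAM was tied to the site table through WT_TAM, with a factor of 1.1423, and 7805 genes with a WT_TAM value of 0 were left out.

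The members and lists were chosen with earlier results of these data known. Since the deposited unit is not a count, the planned test was limma with a mean trend on log2(CPM + 0.5) (limma 3.58.1, R 4.3.3, Python 3.11.15, pandas 2.3.3, numpy 2.4.6), with Benjamini-Hochberg adjustment over all tested genes and a threshold of 0.05. This scale understates differences of low genes. A gene was tested at 0.874 CPM or more (10 reads at the median depth) in as many libraries as the smaller group, with 15 reads in all. On data simulated for KO_TAM against WT_SP alone, 12069 genes with 200 changed 2-fold gave 59.5% recovered and 2 false calls, and 12094 with 200 changed 4-fold gave 100% and 11. The simulated libraries had the same variance setting for every gene and none that stood apart. Only genes well above the filter were changed. These shares therefore check the procedure and do not describe the real libraries. Genes named in the text were the 12 highest and 12 lowest, members of each list chosen by level and by change, those of each class with the widest gap between KO_TAM and WT_TAM, and Mapkap1, Rictor, Mtor and Lyz2. The highest and lowest were taken only among called genes whose KO_TAM and WT_SP libraries did not overlap. Genes of a class were taken only where KO_TAM and WT_TAM libraries did not overlap. For genes so chosen the lack of overlap follows from the choice and is no separate support. Other genes, given only a log2 difference, were chosen after their values were seen. Some genes that this rule names are not reported here. The main fits did not pair libraries by replicate number, and whether equal numbers mark a pair is not known. Promoters came from RefSeq (GRCm38.p6). Alternatives were another pseudocount, filter, scale, weighting, fit or set of libraries.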

Additional observations from a re-analysis of the deposited data

Results flagged for a closer look

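In groups of 4 libraries, 1 library lay far from the other 3 in 28 of 278 groups, when its gap to the nearest library was divided by the range of the group and set against Dixon's critical value. Chance gives this in about 1 in 20 independent, unselected groups. These groups share the same libraries and include genes chosen for their gaps, so the count cannot be set against that rate. WT_TAM replicate 4 was the library in 15 of the 28, KO_TAM replicate 2 in 4, KO_TAM replicate 1 in 3, and KO_TAM replicate 4, WT_TAM replicate 2 and WT_TAM replicate 3 in 2 each.

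In KO_TAM, replicate 2 was far above the rest for the chemokine Ccl6 (0.901 of the range) and the costimulatory gene Cd80 (0.938), and far below for the ribosomal gene Rplp0 (0.959) and for Lyz2 (0.836). KO_TAM replicate 1 was high for Eno1 (0.86) and for the summed CXC chemokines (0.955), and low for the summed T cell and natural killer cell markers (0.831). KO_TAM replicate 4 was low for Ctsb (0.867) and Irf8 (0.993).

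In WT_TAM, replicate 2 was high for Itgad (0.924) and Pkm (0.83), and replicate 3 for Vegfa (0.833) and Siglech (0.968). Replicate 4 was high for Ifitm3 (0.847), Rplp0 (0.891), Rps19 (0.858) and the summed ribosomal genes (0.919). It was low for the T cell gene Lck (0.853), the lipid genes Acsl1 (0.947) and Acly (0.857), Sgk1 (0.895), Mcm6 (0.844), Siglecf (0.864), F5 (0.874), Rictor (0.835) and Klf6 (0.866). The summed mTOR, AKT and FoxO genes (0.91) and T cell and natural killer cell markers (0.922) were low there too. The cause was not tested.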

How the results depend on the processing

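The counts of KO_TAM against WT_SP, 3464 higher and 3205 lower, ranged from 2898 to 3762 and from 2464 to 3617 when 1 library was left out, and those of WT_TAM against WT_SP, 3031 and 2537, from 2300 to 4243 and from 1724 to 3792. In both, the fewest were called without WT_SP replicate 3, and the most without KO_TAM replicate 2 or WT_TAM replicate 4. Between KO_TAM and WT_TAM 0 were called in each such set. The genes that stayed ranged from 3003 to 5638, those that grew from 215 (without WT_TAM replicate 4) to 466, those that shrank from 304 (without KO_TAM replicate 2) to 547, those called in 1 comparison from 2276 to 2781 and those that reversed from 0 to 3. Without WT_TAM replicate 4 and KO_TAM replicate 2 together, 6291 stayed, 137 grew, 233 shrank and 5 reversed, and 55 genes with a difference between tumor and spleen were called between KO_TAM and WT_TAM. With array weights 3965 were lower in WT_TAM than in WT_SP, 329 were called between KO_TAM and WT_TAM, 6504 stayed, 164 grew, 257 shrank and 8 reversed. With all 3 groups in 1 fit 57 such genes were called between KO_TAM and WT_TAM, and with the cells as deposited 3 of the 4 called have such a difference. A filter of 5 CPM, which tests fewer genes, left 263 that shrank. Library totals as the only scale, which move the median of all genes to -0.44, gave 2278 higher and 5552 lower in KO_TAM (29.1% of calls higher, against 51.9%), 1971 and 4565 in WT_TAM, and 3 reversed. H2-Ab1 was then -0.34 and mt-Co3 -0.25. The deposited values scaled as they stand, an alternative chosen after seeing the data, gave 1 reversed and 0.01 for Mtor. Without KO_TAM replicate 3 mt-Co3 was -0.26, and over the other libraries left out up to 0.52. Of 89 genes of the text called in KO_TAM against WT_SP, 82 were called in the same direction under all 26 settings, the exceptions being Csf1r, Irf8, Acly, Cd74, B2m, Col6a2 and Col3a1. Except where given, the cause was not tested.

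Deviations of same-numbered libraries correlated between -0.16 and 0.21, which does not settle whether equal replicate numbers mark a pair. With the replicate block 3169 were higher and 2986 lower in KO_TAM against WT_SP, 4209 and 3747 in WT_TAM against WT_SP, 0 between KO_TAM and WT_TAM, and 6 reversed. This block used only replicate numbers present in both groups, so against WT_SP it also left out replicate 4 of KO_TAM and of WT_TAM. Leaving out WT_TAM replicate 4 with no block gave 4243 and 3792 in WT_TAM against WT_SP.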

Other observations

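Genes with a WT_TAM value of 0 in any library entered no comparison, and 7805 were left out for it. Among them 6 with a mean of at least 5 CPM in KO_TAM were higher in each KO_TAM library than in each WT_SP library, among them Perp, Aspa, Gipr, Aifm3 and Ceacam16. Perp, a membrane protein of desmosomes, was at 13.2 to 50.6 CPM in KO_TAM, highest in replicate 2, and 0.987, 0.772 and 1.03 CPM in WT_SP. KO_TAM replicate 2 was the highest for all 6, and WT_TAM replicate 4 was the library at 0 for all 6. On the other side 63 genes with a mean of at least 20 CPM in WT_SP were higher there than in each KO_TAM library. Of these 35 were immunoglobulin, T cell receptor or unnamed genes, and the rest included the B cell genes Pax5 and Blk, the neutrophil granule genes Ngp, Camp and Elane, and the red cell gene Klf1.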
